A study of Mus musculus with 3 samples.

Results

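The 39 Hox genes of the mouse were described in KO-actin cells, which are mouse embryonic fibroblasts (MEFs) whose β-actin gene was knocked out and to which NLS-tagged β-actin, bearing a nuclear localization signal, was given back. Members were the genes of the files whose mouse symbol is Hoxa, Hoxb, Hoxc or Hoxd followed by a number, 39 of 46603 genes in all. RNA-Seq of polyadenylated RNA was deposited for 3 libraries of 1 genotype, labelled Beta-actin KO-NLS, with no treatment, time or age given. The vector and promoter behind the tagged β-actin, and whether the libraries came from separate cultures, are not given in the sources used here, so spreads and p-values measure how these libraries differ, which may be technical. Knockout and wild-type libraries were not analysed here, and no value below is a change between conditions.

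Hox genes encode homeodomain transcription factors and lie in 4 clusters, each on its own chromosome. Within a cluster, genes at the 3′ end (low paralog numbers) are expressed in anterior parts of the embryo and genes at the 5′ end (high numbers) in posterior and distal parts, so that the set of active Hox genes acts as a code of position. Fibroblasts in culture are known to keep much of the Hox pattern of the place they were taken from, and genes of the same number in different clusters, called paralogs, encode similar proteins.

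The libraries held 49932446, 49587453 and 44383636 counts in replicates 1 to 3. Levels within a gene are CPM, read counts divided by library size, with sizes set by TMM (trimmed mean of M-values), and levels between genes are CPM per kilobase (kb) of exon. Genes with more than 3 counts in every library are called above the floor; a count of 0 leaves room for up to 3, which were 0.0601 to 0.0671 CPM here. Floors and count intervals cover counting error alone. Of 15 fibroblast marker genes 14 were above the floor, against 58.9% of protein-coding genes. Vim, Col1a1 and Fn1 led, and the 15 summed to 12846 to 13901 CPM with a median of 31.2 CPM. Lum was at 0, and Dcn, counted among the 14, had 8, 8 and 6 counts. Epcam, Cdh1 and Cldn4 (epithelium), Cdh5 and Tie1 (endothelium), Ptprc (blood) and Sox1, Sox2 and Olig2 (neural cells) were not above the floor. Other markers of these cell types were, 4 of 8 epithelial, 3 of 6 endothelial, 2 of 6 blood and 5 of 8 neural genes in all. Among them were Krt18, Krt19 and Nes with 37.9, 44.1 and 563 CPM, and at lower levels Cd68 (8.57 CPM), Kdr (2.09), Vwf (2.70), Syt1 (2.70) and Snap25 (1.89), and their part in the Hox levels was not tested.

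Most Hox genes were expressed, and expression fell away at particular borders. Above the floor were 30 of the 39 (76.9%), against 58.9% of 21624 protein-coding genes. A mean of at least 1 CPM was reached by 28 (71.8%), against 52.1% of protein-coding genes. The remaining 9 genes were at or under 3 counts in every library, and 7 of them (Hoxa13, Hoxb1, Hoxd1, Hoxd10, Hoxd11, Hoxd12 and Hoxd13) had 0 counts in all. No gene was above the floor in some libraries and not in others. Levels were moderate: the expressed Hox genes had a median of 5.95 CPM, against 32.0 CPM for protein-coding genes above the floor. All 39 together summed to 309, 318 and 300.0 CPM in the 3 libraries, or 309 ± 8.94 (SD, n = 3). In bulk RNA, expression in fewer cells and less RNA per cell cannot be told apart.

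**Figure D1:**
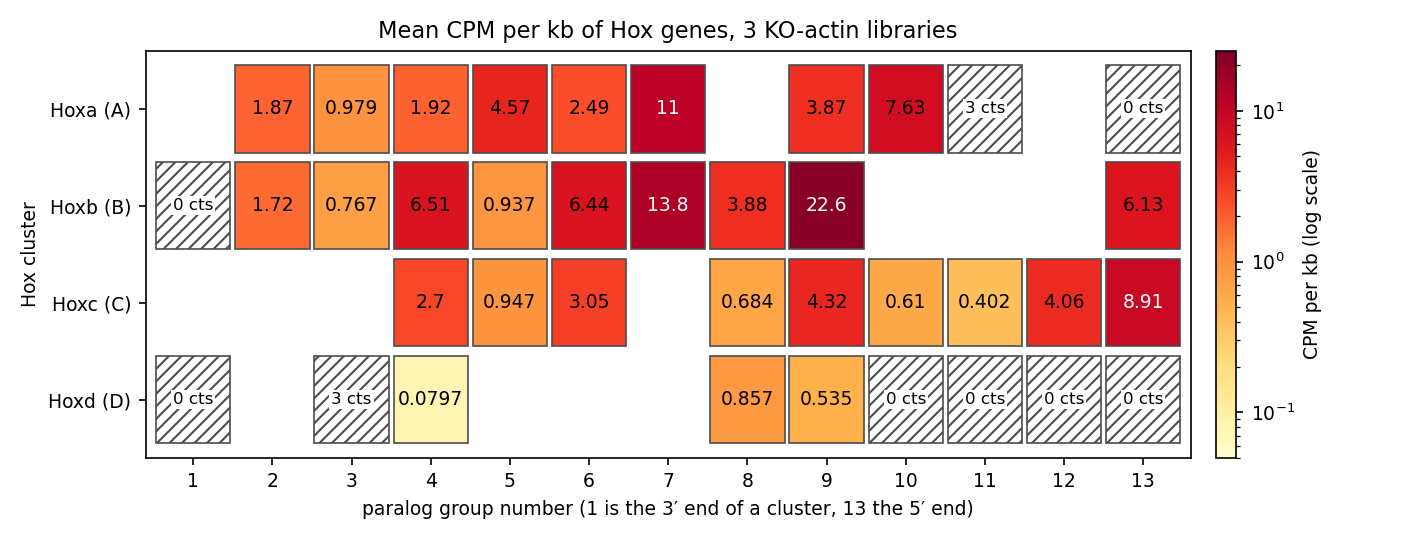
Mean level of each Hox gene over the 3 KO-actin libraries, in CPM per kb on a log colour scale, with the 4 clusters as rows and the paralog number as columns. Hatched cells are the 9 genes at or under 3 counts in every library, with their counts summed over the libraries; blank places hold no gene or one not reported here. Cluster D is empty from paralog 10 on, whereas cluster C is filled to paralog 13.

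Cluster B carried the most Hox mRNA. Of the summed CPM per kb, cluster B held 50.2% ± 0.143, cluster A 28.1% ± 0.486, cluster C 20.5% ± 0.689 and cluster D 1.18% ± 0.140 (SD, n = 3). The order of the clusters was the same in the 3 libraries, with cluster B between 50.1% and 50.3% and cluster D between 1.03% and 1.31%. Above the floor were 9 of 11 genes of cluster A, 9 of 10 of B, 9 of 9 of C and 3 of 9 of D.

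The Hoxa cluster occupies bases 52155590 to 52260880 of chromosome 6 (GRCm38, minus strand). Its highest gene was Hoxa7, a gene of the trunk, with 31.7, 31.7 and 31.2 CPM in replicates 1 to 3, and it made up 31.2% of the cluster's CPM per kb. Hoxa10, which patterns the lumbar spine and the uterus, followed with 24.7, 26.0 and 24.1 CPM. The 3 libraries lay close together for both genes. Hoxa9, a gene of the trunk that is also active in blood stem cells, had 22.7, 21.6 and 20.5 CPM. Hoxa5, which is needed for the lung and the cervical spine, had 8.66, 8.04 and 9.04 CPM. Per kb, Hoxa9 had 3.87 ± 0.193 and Hoxa5 4.57 ± 0.270 (SD, n = 3). Their order per kb rests on exonic lengths of 5580 bases for Hoxa9 and 1877 for Hoxa5. Anterior genes were present, at levels below those of the genes just named. Hoxa2, the selector of the second pharyngeal arch, had 198, 143 and 137 counts, and Hoxa3, needed for thymus and parathyroid, had 307, 282 and 259. In CPM per kb these genes stood at 1.87 and 0.979, below each of Hoxa5, Hoxa7, Hoxa9 and Hoxa10.

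Levels in cluster A fell to the floor between Hoxa10 and Hoxa11, whose annotated starts are 4.96 kb apart. Hoxa10 had 1235, 1283 and 1077 counts, while Hoxa11, a gene of the forearm and the uterus, had 3, 0 and 0 counts, and Hoxa13, a gene of the hand and foot plate and the urogenital tract, had 0 in each library. Per kb, Hoxa10 exceeded Hoxa11 by 838-fold, with a 95% exact interval of 287 to 4066 from the summed counts. Of the exonic length of Hoxa11, 35.0% is shared with exons of other genes, chiefly the antisense gene Hoxa11os, which had 1, 1 and 0 counts. The bases before the start of these genes are shown because the border falls between them; each stretch runs 5′ to 3′ on the minus strand of GRCm38 (RefSeq, GRCm38.p6) up to the base before the first exon, with each CG dinucleotide in capitals. Hoxa10 is chr6:52240855-52241104 and Hoxa11 is chr6:52245811-52246060.
Hoxa10: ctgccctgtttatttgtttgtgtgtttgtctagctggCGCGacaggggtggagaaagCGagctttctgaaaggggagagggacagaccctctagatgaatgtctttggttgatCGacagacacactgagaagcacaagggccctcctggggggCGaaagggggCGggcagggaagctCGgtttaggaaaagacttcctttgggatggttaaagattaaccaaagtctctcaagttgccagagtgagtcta
Hoxa11: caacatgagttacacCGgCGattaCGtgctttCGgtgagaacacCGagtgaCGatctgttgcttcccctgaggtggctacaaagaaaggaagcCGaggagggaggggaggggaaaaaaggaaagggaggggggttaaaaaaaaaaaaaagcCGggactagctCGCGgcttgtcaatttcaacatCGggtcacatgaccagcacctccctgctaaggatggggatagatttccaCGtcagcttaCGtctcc
The stretch before Hoxa10 held 7 CG dinucleotides in 250 bases and that before Hoxa11 13. A second RefSeq start of Hoxa10, within the gene, had 20 in the 250 bases before it (chr6:52234940-52235189), so the order of the 2 genes depends on the start taken.

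The Hoxb cluster (chromosome 11, bases 96194316 to 96368256, plus strand) held the highest Hox genes. Hoxb9, a gene of the thoracic level (chromosome 11, 96271457 to 96276595), had 58.9, 60.1 and 55.8 CPM, or 22.6 ± 0.858 CPM per kb (SD, n = 3), and was the highest of all 39 per kb in each library. Hoxb7, a trunk gene, had 21.3, 21.4 and 21.1 CPM and was the second highest per kb, at 13.8. Hoxb4, known for its use in expanding blood stem cells, and Hoxb6, a gene of the lateral plate mesoderm, followed with 6.51 and 6.44 CPM per kb. Their ranges over the libraries overlapped. Levels did not run evenly along the cluster. Hoxb5, which lies between Hoxb4 and Hoxb6, had 142, 109 and 124 counts and 0.937 CPM per kb, 6.96-fold below Hoxb4 and 6.91-fold below Hoxb6, lower than both in 3 of 3 libraries. Hoxb8 was lower than Hoxb7 by 3.55-fold and lower than Hoxb9 by 5.84-fold, again in 3 of 3 libraries.

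At the 3′ end of cluster B the silent gene was Hoxb1, which gives the fourth rhombomere of the hindbrain its identity, with 0 counts in each library. Hoxb2, also a hindbrain gene and 15.2 kb away by annotated starts, had 288, 334 and 244 counts, at least 192-fold higher per kb when 3 counts over the 3 libraries are put for the 0. At the 5′ end, Hoxb13, a gene of the tail bud and the prostate that lies 77.1 kb beyond Hoxb9, had 12.6, 13.9 and 14.1 CPM, or 6.13 ± 0.353 CPM per kb (SD, n = 3). Hoxb9 exceeded it by 3.70-fold per kb, from 3.40-fold to 3.99-fold over the libraries. Hoxb2 and Hoxb3 share 27.3% and 52.9% of their exonic length with exons of other genes, chiefly the antisense gene Hoxb3os. Hoxb3os had 61, 65 and 58 counts, and 76.2% of its own exonic length is covered from the other strand, chiefly by Hoxb3, so the levels of these genes are uncertain. Counting with regard to strand is not stated in the sources used here.

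The Hoxc cluster, on chromosome 15 from 102921103 to 103036852 on the plus strand, was expressed over its whole length. Hoxc13, which is known from hair and nails, had 22.7, 21.6 and 21.5 CPM and was the highest of the cluster with 34.8% of its CPM per kb. Hoxc9, which sets the thoracic identity of motor neurons, had 10.1, 11.4 and 9.96 CPM. Hoxc12 had 4.53, 4.46 and 3.56 CPM. Between Hoxc9 and Hoxc12 the level dipped. Hoxc10, a gene of the lumbar level and the hind limb, had 41, 71 and 55 counts, and Hoxc11 had 40, 42 and 35. Hoxc9 exceeded Hoxc10 by 7.12-fold per kb and Hoxc12 exceeded Hoxc11 by 10.1-fold, each in 3 of 3 libraries, and Hoxc13 exceeded Hoxc12 by 2.19-fold. Hoxc8, a gene of the thoracic skeleton, was lower than Hoxc9 by 6.30-fold and lower than Hoxc6 by 4.46-fold. Hoxc10 and Hoxc5 share exons, over 8.70% and 5.37% of their lengths, so a small part of their reads cannot be assigned to either.

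The Hoxd cluster, on chromosome 2 from 74668310 to 74765142 on the plus strand, was expressed in a short central stretch alone. Hoxd8 had 88, 135 and 114 counts and Hoxd9 57, 52 and 55, against 16, 9 and 9 for Hoxd4. Hoxd8 was the highest of the cluster at 0.857 CPM per kb, 1.60-fold over Hoxd9 and 10.6-fold over Hoxd4. Hoxd3 had 1, 0 and 2 counts and Hoxd1 0 in each library. Hoxd3 and Hoxd4 share 62.8% and 52.3% of their exonic length with other genes, chiefly Gm28230, which overlaps both, so their counts rest on the remaining exons. The genes from Hoxd10 to Hoxd13, which act in the lumbar level, the limbs and the digits, had 0 counts in each of the 3 libraries. Hoxd9 exceeded Hoxd10, whose annotated start is 5.80 kb away, by at least 46.5-fold per kb, again with 3 counts over the libraries put for the 0. The bases before both genes are shown as for cluster A, on the plus strand, with each CG in capitals. Hoxd9 is chr2:74697513-74697726 and Hoxd10 is chr2:74691641-74691890.
Hoxd9: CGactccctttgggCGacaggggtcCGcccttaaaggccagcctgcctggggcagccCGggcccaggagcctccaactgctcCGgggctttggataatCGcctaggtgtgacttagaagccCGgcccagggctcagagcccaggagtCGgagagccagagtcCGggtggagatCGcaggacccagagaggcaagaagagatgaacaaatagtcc
Hoxd10: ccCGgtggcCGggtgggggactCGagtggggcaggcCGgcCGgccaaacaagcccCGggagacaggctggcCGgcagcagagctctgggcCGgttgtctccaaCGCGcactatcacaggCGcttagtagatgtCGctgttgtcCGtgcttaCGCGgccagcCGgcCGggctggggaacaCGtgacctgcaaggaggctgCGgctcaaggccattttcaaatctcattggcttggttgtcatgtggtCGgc
The stretch before the expressed gene held 10 CG dinucleotides in 214 bases and that before the silent gene 20 in 250. The Hoxd9 stretch is shorter because exon bases were left out. Over the 300 bases around each start the counts were 20 for Hoxd9 and 22 for Hoxd10.

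RefSeq start regions (250 bases before to 50 after a start) were given for 22 of the 39 Hox genes, in 24 regions. Their CG count per 300 bases had a median of 14.5, against 7 over 32851 regions of all genes. It was 12.5 in the 14 regions of genes above the floor and 21 in the 10 regions of genes not above it, with ranges of 4 to 29 and 4 to 45 that overlapped. The letters TATAAA, searched on both strands, were in 4 of the 24 regions, against 13.6% of all regions. The letters TGATNNAT, to which Hox proteins bind together with Pbx proteins, were in 4 of the 24 as well, against 8.85% of all. These are matches of letters and not measured binding.

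Paralog groups 9 and 7 carried the most Hox mRNA. Of the summed CPM per kb, group 9 held 25.1% ± 0.257, group 7 held 19.8% ± 0.487 and group 13 held 12.0% ± 0.410 (SD, n = 3). Groups 6 and 4 followed with 9.55% and 8.96%. Group 9 was expressed from all 4 clusters, with Hoxb9 at 72.2% of it. In group 7 the share was more even, with 55.7% from Hoxb7 and the rest from Hoxa7. Group 13 came from Hoxc13 (59.2%) and Hoxb13, while Hoxa13 and Hoxd13 were at 0. Group 10 was 92.6% Hoxa10, and group 11, the lowest at 0.328%, was almost wholly Hoxc11. Taken by regions, a grouping added after the values were seen, groups 1 to 3 held 4.98% ± 0.200, groups 4 to 8 held 47.8% ± 0.385 and groups 9 to 13 held 47.2% ± 0.220 (SD, n = 3). The shares of groups and regions rest on exonic length and were not computed with other lengths. The SD does not cover that choice, so near values are not ranked. All 15 genes of groups 4 to 8 were above the floor, against 5 of 8 in groups 1 to 3 and 10 of 16 in groups 9 to 13.

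**Figure D2:**
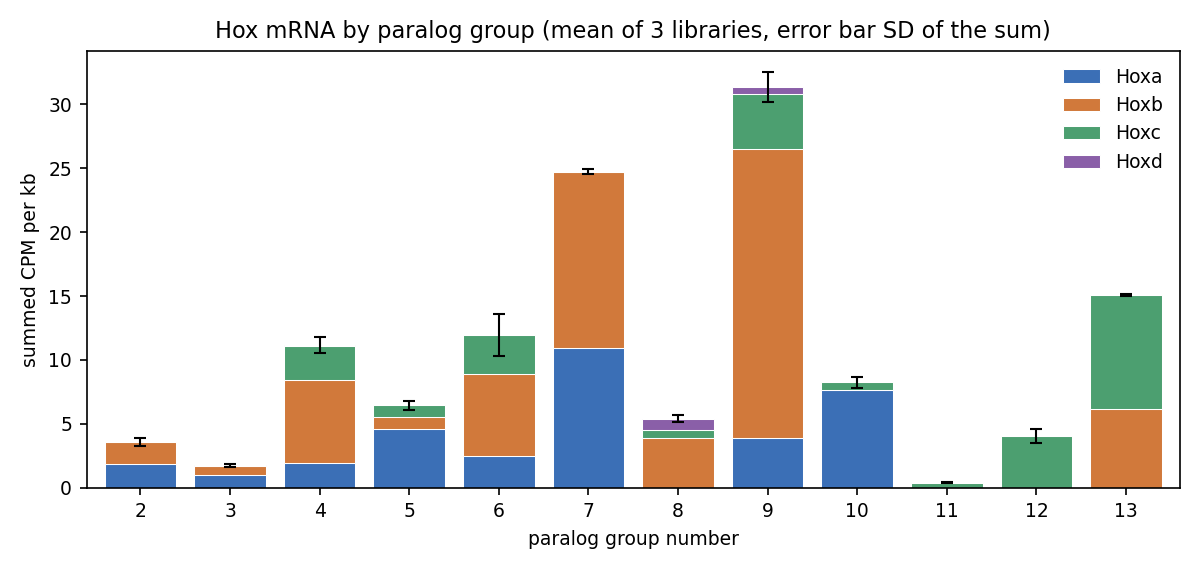
Summed CPM per kb of paralog groups 2 to 13, stacked by cluster, as the mean of the 3 libraries with the SD of the sum as error bar. Groups 7, 9 and 13 stand out, cluster B makes up most of groups 7 and 9, and cluster D is barely visible.

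Ranked by CPM per kb, the 30 expressed genes spanned 284-fold from Hoxb9 to Hoxd4. Hoxb9, Hoxb7, Hoxa7, Hoxc13 and Hoxa10 filled the first 5 places, and each was separated from the next, with no overlap between the ranges over the libraries. These places rest on exonic length. Of the first 8 genes, 6 stayed among the first 8 with the mean length of protein-coding transcripts and 7 with coding length. Of the 29 steps between neighbours in this order, 19 did overlap and 10 did not. Hoxb4, Hoxb6 and Hoxb13, from 6.51 to 6.13 CPM per kb, did not differ beyond their spread from 1 place to the next, and neither did the run from Hoxa5 (4.57) to Hoxa9 (3.87). Below Hoxb2 (1.72) there was a gap to Hoxa3 (0.979), which was followed by 8 genes in overlapping steps down to Hoxd9 (0.535). Hoxc11 (0.402) and Hoxd4 (0.0797) were separated from the genes above them. An exact sign-flip permutation test over 3 libraries cannot go below a two-sided p of 0.25, so no p is given for single steps.

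**Figure D3:**
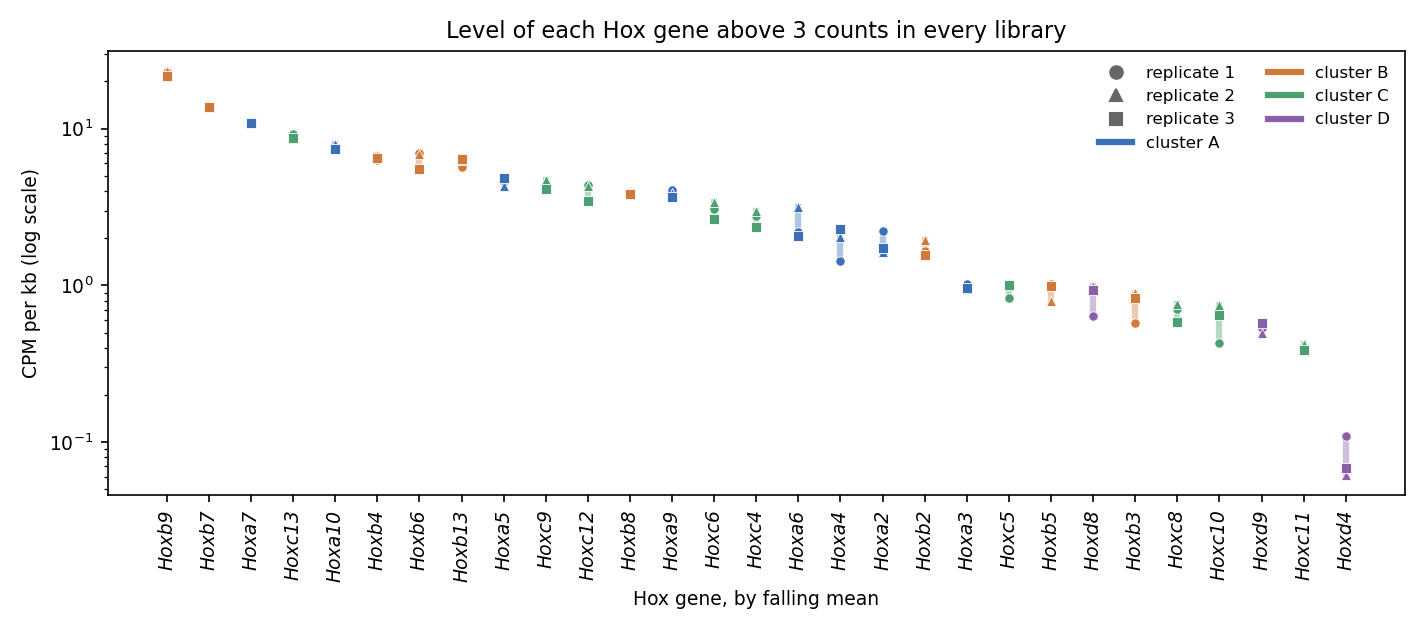
CPM per kb (log axis) of 29 of the 30 Hox genes above 3 counts in every library, by falling mean, with 1 marker for each library, a bar over their range and the colour of the cluster. The first 5 genes do not overlap with their neighbours, and Hoxd4 stands apart at the low end.

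Library differences within the condition touched some Hox genes. A chi-square test on counts against the library sizes, adjusted by Benjamini-Hochberg over the 13814 genes that had 10 counts or more in each library, called 10 of the 29 Hox genes tested (34.5%) at an adjusted p threshold of 0.05, against 43.9% of all genes tested. The 10 were Hoxa2, Hoxa4, Hoxa6, Hoxb3, Hoxb6, Hoxb9, Hoxc4, Hoxc6, Hoxc10 and Hoxd8. Highest and lowest library differed by more than 1.5-fold in 5 of the 29, namely Hoxa4, Hoxa6, Hoxb3, Hoxc10 and Hoxd8. The share of all tested genes beyond 1.5-fold was not computed. The 5 genes had low means, from 1.16 to 3.26 CPM, at which counting error alone widens the ratio. Hoxb6 had the smallest adjusted p, with 13.6, 13.5 and 10.8 CPM (chi-square, adjusted p = 0.000580). Replicate 3 was the low library here. Hoxa4 had 2.28, 3.23 and 3.67 CPM (chi-square, adjusted p = 0.00153), with replicate 1 low. Hoxa6 had 1.92, 2.78 and 1.81 CPM (chi-square, adjusted p = 0.00677), with replicate 2 high. Hoxb9, although called (chi-square, adjusted p = 0.0479), differed by 1.08-fold between its highest and lowest library. Hoxb7 and Hoxa7 were the steadiest, with coefficients of variation of 0.615% and 0.934%, against medians of 10.7% in the tested Hox genes and 5.58% in all tested genes.

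Replicate 2 stood apart from the others in these libraries. Without it, 3 of the 29 Hox genes (10.3%) were called, against 12.9% of all genes, namely Hoxa4, Hoxb3 and Hoxb6. Without replicate 1 or replicate 3, 33.4% and 34.8% of all genes were called in turn. Of the 10 genes called with all libraries, 9 were higher in replicate 2 than in the mean of the others and 1, Hoxa2, was lower. Of the 29 tested, 21 were higher in replicate 2. The shares higher in replicate 2 among all tested and all called genes were not computed, so neither count is read as particular to Hox genes. Replicate 2 was not the highest library for Hoxa4 and Hoxb6. The median log2 difference of replicate 2 from the others was 0.09 in the tested Hox genes and 0.00 in all tested genes, and the median GC content was 54.1% and 50.3%. With library sizes set within 50 bins of GC content, 6 Hox genes were called (Hoxa2, Hoxa4, Hoxb3, Hoxb6, Hoxc6 and Hoxd8), against 28.6% of all genes.

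**Figure D4:**
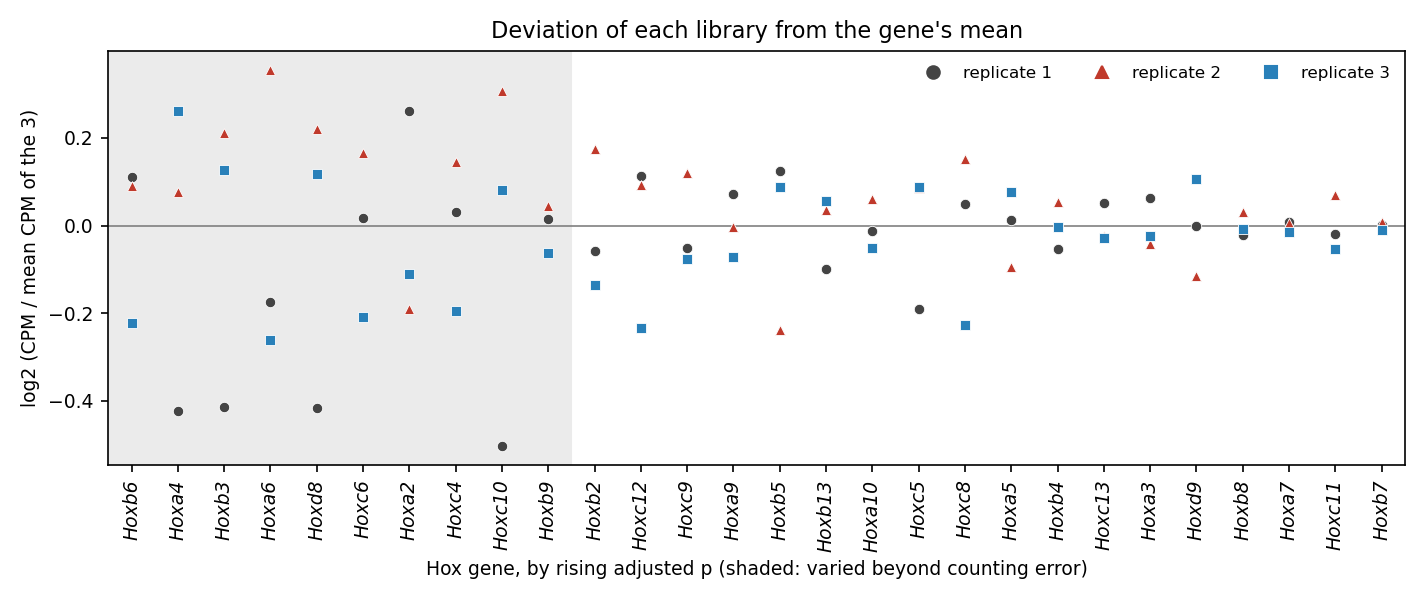
The log2 ratio of each library's CPM to the mean of the 3 libraries, for 28 of the 29 Hox genes tested, ordered by adjusted p. The 10 shaded genes varied beyond counting error, and in most of them replicate 2 lies above 0; Hoxb7 and Hoxa7 lie close to 0 in each library.

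Other transcripts of the clusters were above the floor in A and B alone. Of 46 further annotated genes within the 4 clusters, 14 were above the floor, 6 of 20 in cluster A, 8 of 9 in B, 0 of 7 in C and 0 of 10 in D. The highest was Gm53, a long noncoding RNA between Hoxb13 and Hoxb9, with 531, 585 and 433 counts. Hoxaas2, antisense to Hoxa3, had 129, 149 and 167 counts, and Hotairm1, a further noncoding RNA of cluster A, had 82, 80 and 58. Hotair, a long noncoding RNA of cluster C known for its link to Polycomb repression, had 1, 5 and 4 counts, and Haglr of cluster D had 0, 0 and 1. Hottip, at the 5′ end of cluster A, had 0 in each library, as had Hoxa13 beside it. Of 20 listed noncoding genes of the clusters, 17 were found by symbol and 6 were above the floor. The share of all noncoding genes in the files that were above the floor was not computed. Overlap with exons of other genes limits these values, and some of the 46 genes lie wholly within exons of another gene. Of 142 genes in the files that are wholly covered by exons of the other strand, with the covering gene at 10 CPM or more, 4 (2.82%) were above the floor, and of 281 so covered on the same strand 23 (8.19%) were.

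The clusters also hold the miRNA genes of the miR-196 and miR-10 families, which are known to target Hox mRNAs. The mature sequences (RefSeq, GRCm38.p6) are shown with the seed, bases 2 to 8, in capitals, to be read against the sites in the Hox mRNAs below them. Within each family the seed is shared.
miR-196a-5p: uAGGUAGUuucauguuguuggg
miR-196b-5p: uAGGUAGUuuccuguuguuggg
miR-10a-5p: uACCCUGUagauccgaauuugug
miR-10b-5p: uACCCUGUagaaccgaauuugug
Mir196a-1, whose hairpin lies 295 bases beyond the end of Gm53, had 30, 32 and 26 counts, all above the floor. Mir196a-2 between Hoxc10 and Hoxc9, Mir196b within an exon of Hoxa9, and Mir10b in cluster D had 0 counts, and Mir10a beside Hoxb4 had 3, 4 and 3. Counts of polyadenylated RNA at a hairpin do not measure the mature miRNA.

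Sites for the miR-196 seed were common in the 3′ ends of Hox mRNAs. The match ACTACCT was in the longest annotated 3′ untranslated region of 9 of 39 Hox genes (23.1%), against 6.11% of 20717 genes, at median lengths of 966 and 967 bases. Of these 9 genes, 8 were above the floor (of 30) and Hoxb1 was not (of 9). Hoxa7, the third highest Hox gene per kb, had 4 such sites. The miR-10 match ACAGGGT was in 4 of 39 (10.3%), against 12.6% of all. Sites are written 5′ to 3′ in the mRNA with the match in capitals.
Hoxa7: ggcacagccaaaatACTACCTa
Hoxa9: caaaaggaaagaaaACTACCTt
Hoxb7: ctgtaaaaaaatatACTACCTa
Hoxb8: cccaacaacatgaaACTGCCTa
The Hoxa7 site is chr6:52215400-52215421 and the Hoxa9 site chr6:52223900-52223921, both on the minus strand, and the Hoxb7 site is chr11:96289784-96289805 on the plus strand. The Hoxb8 site, chr11:96284888-96284909 on the plus strand, lacks the exact seed match, since the base opposite position 5 of the miRNA forms a G:U pair. Over its 22 bases it pairs at 21 with miR-196a-5p, more than any window of the other genes among 20639 whose untranslated regions were long enough to be searched; the next Hox gene, Hoxd8, reached 15, and 4.39% of all regions reached that number or more. Hoxb8 itself had 10.1, 10.4 and 10.2 CPM and was steady over the libraries, with a coefficient of variation of 1.88%. Whether miR-196 acted on it was not measured.

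Partners and upstream signals of the Hox genes were present as follows. The TALE homeodomain genes listed were those of the Pbx, Meis and Pknox families, whose proteins bind DNA beside Hox proteins. They were all above the floor (10 of 10 with Pbxip1, a Pbx-binding protein), against 58.9% of protein-coding genes. With Pbxip1 they summed to 449.8 to 466.0 CPM. Pbxip1 had 124, 135 and 127 CPM and Pbx2 had 49.6, 54.2 and 51.1 CPM. Meis1, a partner of the posterior Hox proteins, had 36.1, 38.7 and 40.1 CPM. Of the list, 5 of 10 varied between the libraries beyond counting error, near the 43.9% of all genes tested. By contrast, the relatives of Hox genes outside the clusters or at their ends (Evx1, Evx2, the Cdx genes, Gsx1, Gsx2, Pdx1 and Mnx1) were not above the floor in 9 of 9 cases. This compares with 58.9% of protein-coding genes above it, and 8 of the 9 had 0 counts. Cdx1 had 7, 1 and 1 counts.

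Genes of retinoic acid, the signal that activates 3′ Hox genes in the embryo, were above the floor in 14 of 16 cases, against 58.9% of protein-coding genes, and 8 of 13 tested varied between the libraries, against 43.9% of all genes tested. The receptors led. Rarg had 140, 151 and 139 CPM, Rxrb had 67.6, 77.5 and 64.8, and Rxra had 65.9, 73.9 and 63.1. Replicate 2 was the highest for each. Rarb, a receptor gene that retinoic acid itself induces, had 20, 5 and 7 counts. Of its exonic length 34.1% is covered from the other strand, chiefly by Top2b, so its level is uncertain. Retinoic acid signalling was not tested. Aldh1a2, which makes retinoic acid in the trunk, had 9, 4 and 1 counts and was not above the floor, while Aldh1a1 had 9.45 ± 1.09 CPM (SD, n = 3). Genes that flank the clusters were mostly expressed, 9 of 12 found, against 58.9% of protein-coding genes above the floor. Among them were Calcoco1 beside cluster C (57.0 CPM), Skap2 beside A (49.5 CPM) and Mtx2 beside D (43.7 CPM). Per kb, Mtx2 had 11.9 CPM, against 1.48 for the summed Hox genes of cluster D.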

How the data were processed

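KO-actin MEFs gave 3 RNA-Seq libraries of polyadenylated RNA, with replicate numbers from their titles. The values that the authors deposited are raw read counts for each Ensembl gene. The submitters' processing notes name Trimmomatic, FastQC, HISAT2, HTSeq, mm10 and GRCm38, with no versions; the strand setting, the treatment of reads on several genes and the annotation are not given in the sources used here. HTSeq discards or assigns reads on overlapping exons by its settings, so overlapped genes are uncertain. Gene counts do not separate isoforms.

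Symbols were matched by identifier for 46005 of 46603 genes, and coordinates, lengths and GC content came from GENCODE M21 (GRCm38). The exonic length is the union of all annotated exons of a gene. TMM library sizes came from edgeR 4.0.16 (R 4.3.3). The chi-square test (2 degrees of freedom for 3 libraries) was written with numpy 2.4.6, pandas 2.3.3 and scipy 1.17.1 in Python 3.11.15 and tested on simulated data, and figures were drawn with matplotlib 3.10.9. Intervals are exact (Clopper-Pearson) at 95%. Sequences came from RefSeq tables, and 3′ sites from the GRCm38 transcripts. DESeq2 1.42.0 size factors, total counts, other filters and lengths, and leaving out each replicate were alternatives. All 39 members enter the counts and sums; 1 of them and some genes of other lists are not reported here by name. Of other lists, genes are named by the 3 highest means, less those, and by the members that define a region or cell type, with Meis1, Rarb, Aldh1a1 and single noncoding genes added after their values were seen. The members and lists were chosen with earlier results of these data known. Proteins were not analysed here.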

Additional observations from a re-analysis of the deposited data

How the results depend on the processing

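No paired analysis was possible because the 3 libraries are of a single condition. The number of Hox genes above the floor was 30, 29 with at least 10 counts and 27 with at least 1 CPM in every library, and 30 without any 1 replicate. The number with a mean of at least 1 CPM was 28 under both other scalings and without any 1 replicate. Over 78 single-gene means, another scaling changed the CPM by at most 0.449%.

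The length used moved the shares of the clusters. With the mean length of protein-coding transcripts, cluster A held 39.4%, B 42.0% and C 17.5%. As shares of CPM with no length they were 33.4%, 46.7% and 18.7%, and without bases shared with other genes' exons, an alternative added after seeing the data, 30.0%, 49.1% and 19.7%. Cluster B was the highest and D the lowest under each, and each cluster kept its highest gene. With transcript length Hoxa7 came first, before Hoxb9 and Hoxb7. Overlapping steps in the order numbered 17 to 19 under other lengths and 13 to 16 without 1 replicate.

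The number of varying Hox genes was 9 under both other scalings, 10 or 9 under the looser filters, and 6 within 50 bins of GC content. It was 3 to 6 without 1 replicate, lowest without replicate 2, and 3 without replicate 2 within bins of GC content, added after seeing the data; fits with fewer libraries also have less power. Hoxb9 was not called under either other scaling. For the 9 Hox genes at or under the floor, depth allows an upper limit alone.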

Other observations

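Other transcription factors that mark regions of the body were set beside the Hox genes as lists. Of 20 factors of limb and trunk mesenchyme, 10 were above the floor, against 58.9% of protein-coding genes. Prrx1, a marker of limb and other loose mesenchyme, had 66.8, 70.4 and 71.3 CPM, En1 had 34.1, 37.6 and 32.3 CPM and Prrx2 had 23.1, 28.6 and 22.4 CPM. Tbx5 and Pitx1, which mark the fore limb and the hind limb in turn, had 0 counts in each library, as had Isl1, Hand2, Lmx1b, Meox2 and Pax1, while Tbx4, the other hind limb factor, had 2, 7 and 3 counts. Within this list 4 of 10 tested genes varied between the libraries, near the 43.9% of all genes tested.

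Factors of the head, where fibroblasts usually lack Hox expression, were above the floor in 10 of 16 cases, against 58.9% of protein-coding genes. Among the 6 not above it, Msx1 had 0 counts in each library and Otx2 had 1, 0 and 0. Of 10 visceral factors 8 were above the floor, against the same 58.9%. Nkx2-5, a heart factor, led with 82.4, 100.8 and 80.2 CPM. Gata4 followed with 43.5, 44.1 and 40.0 CPM and Foxf2 with 23.5, 25.6 and 23.8 CPM, while Tcf21 and Tlx1 had 0 counts. Of the genes tested, 5 of 10 head factors and 2 of 6 visceral factors varied between the libraries, against the same 43.9%. Bulk libraries do not show whether these factors and the Hox genes were expressed in the same cells.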
